A study of Homo sapiens with 6 samples.

Results

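The 87 protein-coding genes described here encode the proteins of the cytosolic ribosome, and they were picked by gene symbol from a table of 58735 genes. A gene was taken when its symbol followed the RPL or RPS naming pattern or was RPLP0, RPLP1, RPLP2, RPSA or FAU; the naming rule itself uses no measured value. Of the 87 genes, 52 belong to the large subunit and 35 to the small subunit, and 9 of them are paralogue copies of another member. The retrogene RPL36AL also encodes a ribosomal protein but falls outside the naming pattern, and is given separately.

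All 6 libraries came from HepaRG, an established human liver progenitor line, which was differentiated with 1.8% DMSO for 2 weeks. The cells received siRNA for 48 h and then oleic acid (800 µM) with palmitic acid (400 µM) for 24 h, a fatty acid load that every library shared. The siRNAs named in the sample descriptions target STAT3, a cytokine-activated transcription factor, and PTPRD, a receptor-type tyrosine phosphatase. Libraries were labelled PTPF (n = 3) or STATF (n = 3), abbreviations that are not spelled out. None of the 6 was labelled as a control, so neither label can be set against control siRNA. Each library held between 33225627 and 40796767 gene counts. STAT3 stood at 443 ± 12.2 CPM (each library's counts scaled to a common size with TMM factors) in libraries labelled PTPF and at 119.6 ± 10.6 CPM in those labelled STATF (SD, n = 3 each). PTPRD was at 11.5 ± 1.37 and 11.5 ± 0.603 CPM (SD, n = 3 each; edgeR adjusted p = 0.999), so directions below are between libraries by label. Whether replicates were grown as separate cultures is not stated, and the p-values reflect only how much these libraries vary, which can be technical variation.

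A ribosome is built from a large and a small subunit, each a scaffold of ribosomal RNA covered by many proteins. Most of these proteins are needed in equal numbers, and cells degrade those left over from assembly. Their messenger RNAs belong to the TOP class, whose 5′ end begins with a C followed by a run of pyrimidines, and the mTORC1 kinase controls the translation of this class through the LARP1 protein. In hepatocytes, which export large amounts of plasma protein, ribosomes are a major part of the biosynthetic capacity.

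The TOP start can be seen in the reference promoters of the members that the results turn on. Each sequence runs from 30 bases before the annotated transcription start to 10 bases from the start on, read 5′ to 3′ on the gene's strand, from RefSeq on GRCh38.p14. Capitals mark a pyrimidine run that begins with C within 5 bases of the annotated start and holds at least 4 further C or T bases, as far as it lies in the window. The first group shows proteins of the catalytic centre, the S6 kinase substrate, the stalk base and the genes with large differences between the groups.
RPL3 (chr22:39319614-39319653, minus strand): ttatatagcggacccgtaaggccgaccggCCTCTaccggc
RPS6 (chr9:19380227-19380266, minus strand): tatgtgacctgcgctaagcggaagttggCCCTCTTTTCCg
RPLP0 (chr12:120201102-120201141, minus strand): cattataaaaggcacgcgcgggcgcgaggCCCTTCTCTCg
RPS9 (chr19:54200828-54200867, plus strand): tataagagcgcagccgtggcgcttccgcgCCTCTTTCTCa
RPL22 (chr1:6199586-6199625, minus strand): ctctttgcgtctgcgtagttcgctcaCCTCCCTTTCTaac
RPL26 (chr17:8383184-8383223, minus strand): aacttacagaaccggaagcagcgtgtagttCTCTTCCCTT
RPS29 (chr14:49598701-49598740, minus strand): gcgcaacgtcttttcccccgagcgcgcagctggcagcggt
The paralogue copies and RPS26 come next, for comparison.
RPL22L1 (chr3:170870186-170870225, minus strand): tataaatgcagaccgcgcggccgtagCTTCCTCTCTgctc
RPL7L1 (chr6:42879586-42879625, plus strand): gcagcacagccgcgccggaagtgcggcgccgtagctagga
RPL26L1 (chr5:172958699-172958738, plus strand): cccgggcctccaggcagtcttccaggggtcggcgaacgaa
RPS27L (chr15:63157468-63157507, minus strand): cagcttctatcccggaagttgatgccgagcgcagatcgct
RPS26 (chr12:56041888-56041927, plus strand): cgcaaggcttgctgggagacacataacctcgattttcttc
The run is present in RPL3, RPS6, RPLP0, RPS9, RPL22, RPL26 and RPL22L1 and absent at the annotated start of RPS29, RPS26, RPL7L1, RPL26L1 and RPS27L. RefSeq promoters matched 70 of the 87 members, and 53 of these (75.7%) had the run, against 5749 of all 27305 promoters (21.1%). Among members other than copies 51 of 63 had it, and among copies 2 of 7. In the 300 bases around the start, the ETS factor motif CCGGAAG on either strand occurred in 32.9% of members and 10.7% of all promoters. The motif AAGATGGC, which matches the factor YY1, occurred on either strand in 11.4% and 3.03%. TATAAA in the 50 bases before the start, on the sense strand, was found in 5.71% of members and 2.92% of all promoters. A match is a description of letters, not a bound site.

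Ribosomal protein transcripts were slightly and evenly more abundant in the PTPF-labelled libraries. Of 83 members with enough counts to test, 76 were higher in the libraries labelled PTPF and 0 lower at an edgeR adjusted p under 0.05, where 10.1% of all 17844 genes tested were higher and 11.6% lower. The remaining 7 did not pass, 78 members had an unadjusted p under 0.05, and DESeq2 and limma-voom also called 0 members lower, against 12.2% and 11.5% of the genes each tested. All 83 fold changes were above 0, against 50.3% of all genes. The members that were tested shifted by a median of 0.26 on the log2 scale, or 1.19-fold, with quartiles of 0.23 and 0.30, while the median of all genes was 0.00 with quartiles of -0.16 and 0.16. In 77 members the lowest PTPF-labelled library lay above the highest STATF-labelled one, against 17.3% of all genes.

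The differences were small, and 75 of the 76 called members differed by less than 1.5-fold. The 95% interval of the fold change included the members' median in 78 of the 83. Of the other 5, all lay above it: RPL22L1, RPL26, RPS29, RPS9 and RPL22. Of 3407 other genes with at least 50 CPM, 17.0% were higher and 21.3% lower, at a median of -0.02 on the log2 scale. The 4 members that were not tested are the testis-type copy RPL39L, the muscle-type copy RPL3L and the Y-linked copies of RPS4X.

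**Figure D1:**
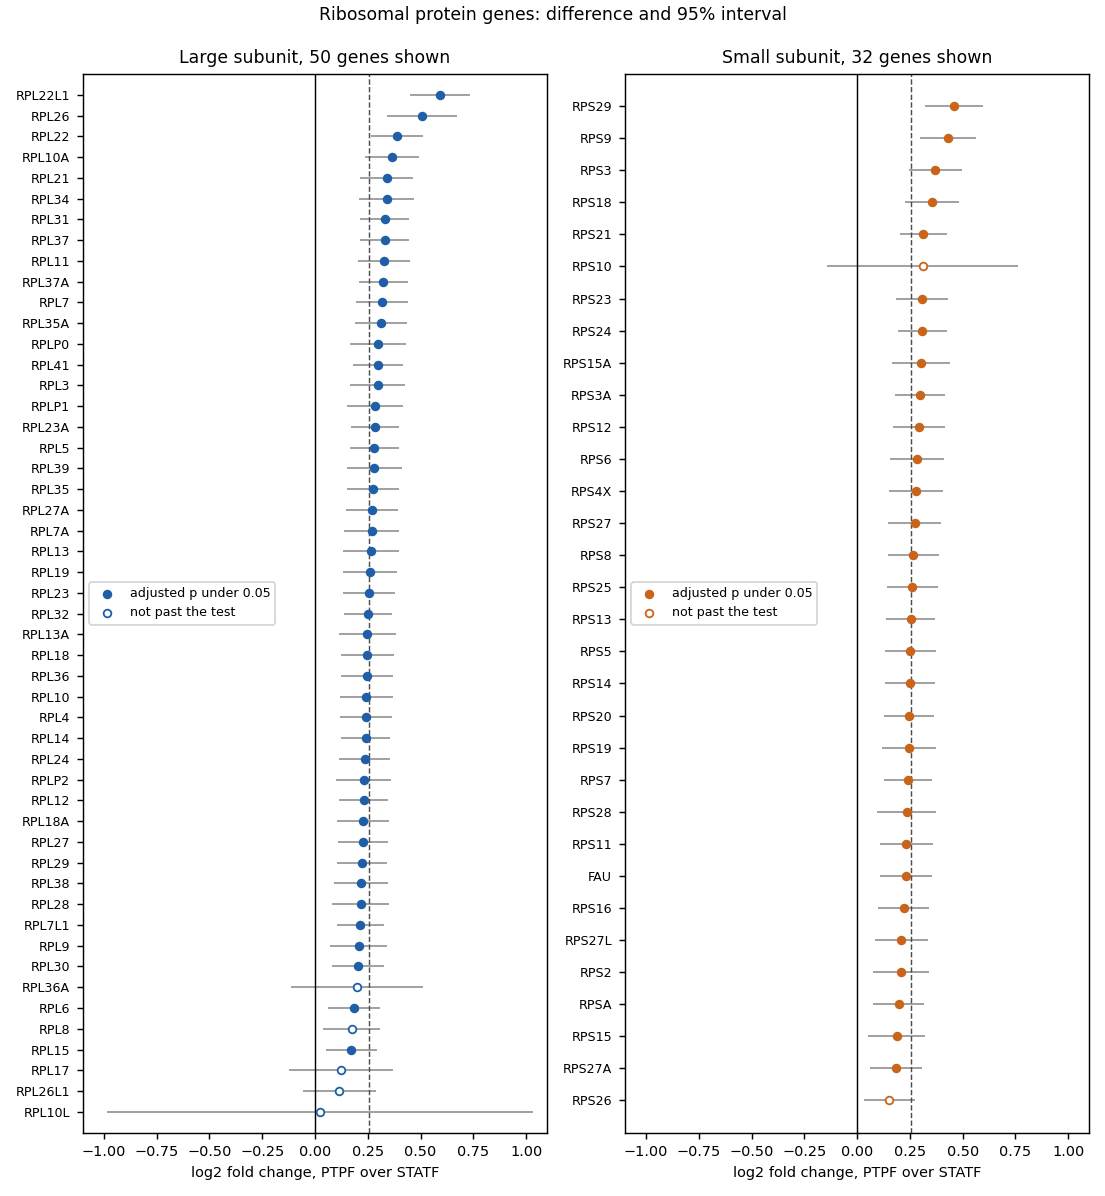
Log2 fold change (PTPF over STATF, horizontal axis) and 95% interval of the tested ribosomal protein genes, except 1 small-subunit gene not reported here, with large-subunit genes on the left and small-subunit genes on the right. Filled points passed an adjusted p under 0.05, open points did not, the dashed line is the members' median of 0.26, and no point lies below 0.

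The summed level of the members separated the groups. As a share of all counts the 87 genes took 2.92%, 2.70% and 2.73% in PTPF-labelled replicates 1, 2 and 3 and 2.41%, 2.41% and 2.46% in the STATF-labelled ones. The groups did not overlap, the means being 2.78% ± 0.121 and 2.42% ± 0.027 (SD, n = 3 each), a ratio of 1.15. The two-sided exact permutation p was 0.1, the smallest that 3 against 3 libraries allow. As a share of nuclear protein-coding counts, which leaves out the mitochondrial transcripts (18.1% ± 0.432 of counts with the PTPF label and 19.1% ± 0.425 with the STATF label), the means were 3.46% ± 0.151 and 3.06% ± 0.0472 (SD, n = 3 each).

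PTPF replicate 1 stood highest. Over the 78 members with a mean of at least 500 counts, the median deviation from each gene's own mean was 0.23 in PTPF replicate 1, 0.07 in replicate 2 and 0.09 in replicate 3 on the log2 scale. In STATF replicates 1 to 3 it was -0.17, -0.14 and -0.08. Without PTPF replicate 1, 67 members were called higher with a median of 0.21, where 9.53% of all genes were called higher, and without STATF replicate 2, the library whose absence cost most calls, 62 were, where 7.38% of all genes were. The TMM scaling factors also separated the groups, at 0.953, 0.999 and 0.983 for PTPF and 1.03, 1.02 and 1.02 for STATF. With library totals as the only scaling 63 members were higher, where 6.52% of all genes were, and 0 lower. Their median was then 0.19 and that of all genes -0.06, and the calls that ended included those of RPL15 (adjusted p = 0.141), RPS2 (0.0577), RPS27A (0.118), RPSA (0.0611) and RPS27L (0.0933). The origin of this gap in the factors was not tested.

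**Figure D2:**
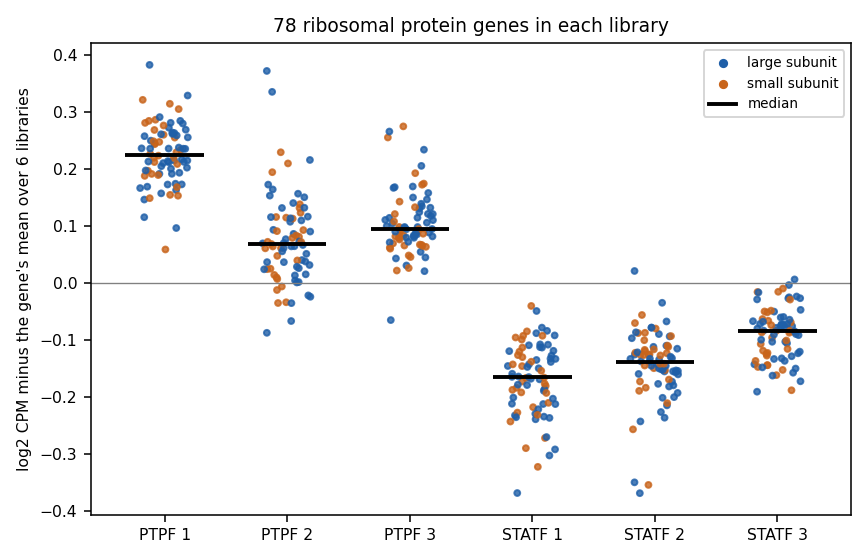
Each point is 1 of 78 ribosomal protein genes with a mean of at least 500 counts in 1 library, placed at its log2 CPM minus the gene's mean over the 6 libraries (vertical axis); colour gives the subunit and the bar the median. The medians of the PTPF-labelled libraries are 0.23, 0.07 and 0.09 and those of the STATF-labelled ones -0.17, -0.14 and -0.08, and the subunits are mixed within every library.

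The subunits differed from each other by less than the spread between libraries. In the large subunit 45 of 50 tested genes were higher (90%), at a median log2 fold change of 0.25. In the small subunit 31 of 33 were (93.9%), with a median of 0.26, where 10.1% of all genes were higher. The mean log2 CPM of large-subunit genes minus that of small-subunit genes was -0.02, 0.01 and -0.01 in the PTPF-labelled and 0.00, -0.02 and 0.01 in the STATF-labelled libraries. No library stood apart in the balance of the subunits. The large subunit took 1.73% ± 0.0731 against 1.51% ± 0.0216 of counts, and the small subunit 1.06% ± 0.0483 against 0.919% ± 0.00564 (SD, n = 3 each).

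Among the 6 largest differences, the first was in a paralogue copy. RPL22L1, the copy of the RNA-binding protein RPL22, stood at 57.2, 55.3 and 49.3 CPM in PTPF-labelled libraries and at 33.9, 33.9 and 39.5 CPM in STATF-labelled ones. Every PTPF-labelled library was above every STATF-labelled one, and the gene was 1.51-fold higher (log2 fold change 0.59, SE 0.0693, edgeR adjusted p = 3.06e-07). RPL26, a protein at the rim of the exit tunnel that also binds the p53 messenger RNA, was at 18.9, 22.6 and 21.0 against 15.1, 13.7 and 15.3 CPM. The groups did not overlap, and the log2 fold change was 0.51 (SE 0.0808, edgeR adjusted p = 2.83e-05). RPL26 has near-identical processed copies in the genome, so its level is uncertain, as described further on.

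RPS29, a small zinc-binding protein of the head of the small subunit, was at 72.5, 74.5 and 76.9 CPM in the PTPF-labelled libraries and 52.0, 49.7 and 61.4 CPM in the STATF-labelled ones. Its spread was wider among the STATF-labelled libraries, but no value of 1 group reached the other, and the log2 fold change was 0.46 (SE 0.0664, edgeR adjusted p = 9.05e-06). RPS9 and RPS3, which line the messenger RNA entry of the small subunit, were both among the 6. RPS9 was at 591, 493 and 564 against 399, 396 and 430.0 CPM (log2 fold change 0.43, SE 0.0645, edgeR adjusted p = 1.28e-05). RPS3 was at 577, 491 and 527 against 408, 415 and 409.8 CPM (log2 fold change 0.37, SE 0.0609, edgeR adjusted p = 4.23e-05). In both genes PTPF replicate 1 was the highest library and replicate 2 the lowest of its group. RPL22 itself was at 58.0, 53.0 and 57.8 against 40.7, 43.3 and 44.9 CPM, without overlap, and the log2 fold change was 0.39 (SE 0.0606, edgeR adjusted p = 2.23e-05).

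Grouped by place and role in the ribosome, the members stayed near the common median. The share called higher in each group is to be read against 91.6% of all tested members and 10.1% of all genes. All 3 stalk proteins, which recruit elongation factors, were higher. RPLP0, the base of the stalk, was at 1381, 1173 and 1207 CPM in the PTPF-labelled libraries and 1019, 1029 and 1008 CPM in the STATF-labelled ones. The STATF-labelled libraries lay close together and well below the lowest PTPF-labelled one, and the log2 fold change was 0.30 (SE 0.0643, edgeR adjusted p = 0.000984). RPLP1 had a log2 fold change of 0.28 and RPLP2, its partner, 0.23 (edgeR adjusted p = 0.00172 and 0.00854). The RPLP2 call ended without STATF replicate 1 or without STATF replicate 2 (adjusted p = 0.0519 and 0.0628).

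RPL5 and RPL11 carry the 5S ribosomal RNA into the large subunit and, when free, bind the p53 regulator MDM2. RPL5 was at 393, 377 and 368 against 304, 312 and 320.2 CPM, and RPL11 at 323, 308 and 292 against 243, 232 and 262 CPM. Neither gene's groups overlapped, and the log2 fold changes were 0.28 and 0.33 (edgeR adjusted p = 0.000391 and 0.000152). Of 10 genes of the exit tunnel and its rim 9 were higher (90%), at a median log2 fold change of 0.28. Of all tested members 91.6% were higher, and of all genes 10.1%. RPL4, whose long loop reaches into the tunnel wall, stood at 862 ± 47.7 against 729.8 ± 22.8 CPM (SD, n = 3 each; log2 fold change 0.24). The 1 tunnel gene that did not pass was RPL17.

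RPL3, the protein next to the peptidyl transferase centre, was at 1047, 885 and 938 against 786, 774 and 777 CPM, without overlap (log2 fold change 0.30, edgeR adjusted p = 0.00092). RPL10, which is added late and completes the large subunit, had a log2 fold change of 0.24. RPL13A, which also serves in a complex that represses translation after interferon-gamma, had 0.25. For both the edgeR adjusted p was under the threshold, at 0.00405 and 0.00643. Of the RPL10 exon bases 55.5% are shared with 3 other genes, the largest part with DNASE1L1 on the opposite strand, and without a stated strand setting reads of these genes cannot be told apart.

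In the small subunit, 13 of 14 genes of the head were higher (92.9%), at a median log2 fold change of 0.26. RPS6, the substrate of the S6 kinases, was at 557, 498 and 468 CPM against 418, 424 and 411 CPM. The lowest PTPF-labelled library lay above all STATF-labelled ones, and the log2 fold change was 0.28 (SE 0.062, edgeR adjusted p = 0.00125). RPS19, the gene most often mutated in the inherited anaemia named after Diamond and Blackfan, was at 606 ± 50.4 against 512 ± 10.8 CPM (SD, n = 3 each; log2 fold change 0.24, edgeR adjusted p = 0.00445). Over the 18 members linked to that anaemia 16 were higher (88.9%), with a median of 0.27. Both shares lie near the 91.6% of all tested members, where 10.1% of all genes were higher. RPS4X, whose Y-linked copies are not reported, had a log2 fold change of 0.28 (edgeR adjusted p = 0.00161).

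Members made as fusions with ubiquitin or a ubiquitin-like protein lay in the lower part of the range. RPS27A, a ubiquitin fusion, was at 283, 252 and 259 against 218, 236 and 245 CPM, and the log2 fold change was 0.18 (SE 0.0598, edgeR adjusted p = 0.0281). Its groups did not overlap, but the call ended without PTPF replicate 1 (0.0757), PTPF replicate 3 (0.0504), STATF replicate 1 (0.202) or STATF replicate 2 (0.0763). FAU, fused to the ubiquitin-like protein FUBI, had a log2 fold change of 0.23 (edgeR adjusted p = 0.00567), and 0.0546 without STATF replicate 1. RPL36AL, which lies outside the naming rule, had 0.20 (edgeR adjusted p = 0.0176) and did not pass without STATF replicate 1 (0.109) or without STATF replicate 2 (0.0989). RPSA, known also as the laminin receptor, had 0.20 (edgeR adjusted p = 0.0152), a call that ended without any 1 STATF-labelled library (0.0613 to 0.0742).

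The 7 members that did not pass fall into separate kinds by their counts. RPL8, a protein near the catalytic centre, was at 745, 604 and 670.0 against 595, 594 and 601 CPM. No library overlapped, but the spread among the PTPF-labelled libraries was wide, and the log2 fold change was 0.17 (SE 0.0653, edgeR adjusted p = 0.0589). RPS26, at the messenger RNA exit, was at 163, 144 and 145 against 131, 137 and 138 CPM, and the log2 fold change was 0.15 (SE 0.0576, edgeR adjusted p = 0.0582). Both lay near the threshold and passed without PTPF replicate 2 (adjusted p = 0.0019 for RPL8 and 0.0179 for RPS26), with the replicate block (0.0414 and 0.0486) and with upper-quartile scaling (0.0452 and 0.0429). RPL8 also passed in DESeq2 (0.0414) and without a filter (0.0345), and RPS26 with a filter of at least 50 counts (0.0465). RPL15, an early binder of the large-subunit RNA and among the 6 smallest differences, just passed at a log2 fold change of 0.17 (edgeR adjusted p = 0.0379), with STATF-labelled libraries at 540.2, 537 and 543 CPM and PTPF-labelled ones at 655, 589 and 581. That call ended without PTPF replicate 1 (0.101) or without any 1 STATF-labelled library (0.111 to 0.143).

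Most of the other members that did not pass had few counts. RPS10, a protein of the head, had 352 counts over all 6 libraries, at 2.28, 1.53 and 1.59 against 1.23, 1.58 and 1.52 CPM. Its log2 fold change was as large as that of most members, 0.31, but with an interval from -0.14 to 0.76 (edgeR adjusted p = 0.357). RPL36A, near the exit site of the transfer RNA, had 770 counts, at 3.40, 4.41 and 3.46 against 3.23, 3.43 and 3.18 CPM (log2 fold change 0.20, edgeR adjusted p = 0.4). RPL17 had 1743 counts, with 8.89, 7.88 and 8.30 against 7.65, 6.24 and 9.17 CPM (0.12, interval -0.12 to 0.37, edgeR adjusted p = 0.53). For these genes the groups overlapped, and a difference of the members' median size was not detectable at this depth, nor was it for the copy RPL10L (0.02, edgeR adjusted p = 0.983). The copy RPL26L1 had 3256 counts and a log2 fold change of 0.11, with an interval from -0.06 to 0.29 (edgeR adjusted p = 0.382).

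Several of the members with few counts share exons with other annotated genes, and how such reads were assigned is not stated. RPS10 shares 39.4% of its exon bases with the readthrough gene RPS10-NUDT3, and RPL36A shares 8.4% with RPL36A-HNRNPH2, both on the same strand. RPL17 shares 35.3% with 5 other genes, 32.7% on its own strand, and the readthrough gene RPL17-C18orf32 holds the largest part. In TPM (a level per base of transcript, here by the deposited gene length) RPS10 at 1.71 and RPL36A at 2.22 were the 2 lowest members other than copies. The highest were RPS2 at 1298, RPS12 at 1048 and RPL41 at 869 TPM, although the ribosome holds these proteins in equal numbers.

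The order of levels depended on which length was used. Deposited gene lengths ran from 767 to 9845 bases over the members, with a median of 2907, and the median coding transcript from 359 to 3769, with a median of 705. Coding transcript length was set for members only, while all other genes kept the deposited length. By it RPS2 (3353 TPM), RPLP1 (3047 TPM) and RPLP0 (2926 TPM) came first, and RPS10 and RPL36A again came last. These values give only the order among members and cannot be set against the TPM by deposited length. RPS2 shares 25.6% of its exon bases with 3 other genes, and its call (log2 fold change 0.21, edgeR adjusted p = 0.0213) ended without PTPF replicate 1 (0.0633) or any 1 STATF-labelled library (0.0674 to 0.105). In all, 52 members share exon bases with another gene and 21 share over 10%. Without those 21, 57 of 62 tested members were higher, with a median of 0.26.

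Processed pseudogenes, reverse-transcribed copies scattered through the genome, resemble the transcripts of their parent genes closely, and reads can be assigned to either. The table holds 1146 pseudogenes named after 78 of the members, and 534 of them had counts. Summed per parent gene, pseudogenes took a median of 0.477% of the parent's and pseudogenes' counts together, but over 10% for 9 parents and over 50% for 3. The 3 were RPS10 (70.9%, mostly in RPS10P7), RPS28 (64.3%, in RPS28P7) and RPL9 (60.4%, mostly in RPL9P9). For RPL26 the share was 23.7%, for RPL7 19.4%, for RPS2 17.1%, for RPS7 13.8%, for RPL22 12.8% and for RPL36A 11.6%. The levels of these genes, and ratios of copies to RPL26, RPL7 and RPL22, are therefore uncertain. Of 87 pseudogenes tested 17 were higher (19.5%) and 2 lower (2.3%), where 10.1% of all genes were higher and 11.6% lower. RPL9P9 was itself higher in PTPF-labelled libraries (log2 fold change 0.27, edgeR adjusted p = 0.000651), as was RPS28P7 (0.19, 0.0164), and their parents RPL9 and RPS28 had 0.21 and 0.23. RPS10P7 did not pass (0.17, edgeR adjusted p = 0.523), and the lower ones were RPL12P14 (-0.94, 0.000183) and RPL7AP6 (-0.36, 0.00506). With pseudogene counts added to their parents, 76 members were higher, where 10.1% of all genes were, with a median of 0.25, and RPL26 went from 0.51 to 0.45.

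Paralogue pairs were compared as the ratio of copy to partner in each library, and 6 of 7 pairs had enough counts. With 3 libraries against 3 the exact p cannot fall below 0.1, so no pair could pass a threshold of 0.05. RPL22L1 stood at 98.6%, 104.3% and 85.2% of RPL22 in the PTPF-labelled libraries and 83.3%, 78.3% and 88.0% in the STATF-labelled ones. The groups overlapped, and the difference of the log2 ratio was 0.20 (two-sided exact permutation p = 0.2, adjusted over the 6 pairs 0.6). Both genes of this pair were higher on their own. RPL26L1 stood at 87.2%, 62.0% and 76.8% of RPL26 in the PTPF-labelled libraries and at 88.1%, 110.3% and 95.5% in the STATF-labelled ones. Here the groups did not overlap, with a difference of -0.39, but the exact permutation p was 0.1, and 0.6 adjusted. RPL26L1 itself was at 16.5, 14.01 and 16.1 against 13.3, 15.1 and 14.6 CPM, and its groups overlapped, unlike those of RPL26.

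RPS27L, a copy of RPS27 that p53 induces, was at 141, 156 and 139 against 116, 128 and 134 CPM (log2 fold change 0.21, edgeR adjusted p = 0.0132), a call that ended without PTPF replicate 2 (0.0546) or STATF replicate 1 (0.135). RPS27 had 0.27 (0.00162), and the ratio differed by -0.07 (exact permutation p = 0.5, adjusted 0.7). RPL7L1, a relative of RPL7, was at 129, 121 and 123 against 107, 109 and 105 CPM, without overlap (log2 fold change 0.21, edgeR adjusted p = 0.00399). RPL7 had 0.32, and RPL7L1 was 28.1%, 28.4% and 28.2% of RPL7 against 32.04%, 31.4% and 27.8%. That difference of -0.10 in the log2 ratio had an exact permutation p of 0.4 and an adjusted one of 0.7. The copies known from testis and muscle were almost silent: RPL10L had 70 counts in all libraries together, RPL3L 45 and RPL39L 2. Their partners RPL10, RPL3 and RPL39 had 121877, 188408 and 25372.

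**Figure D3:**
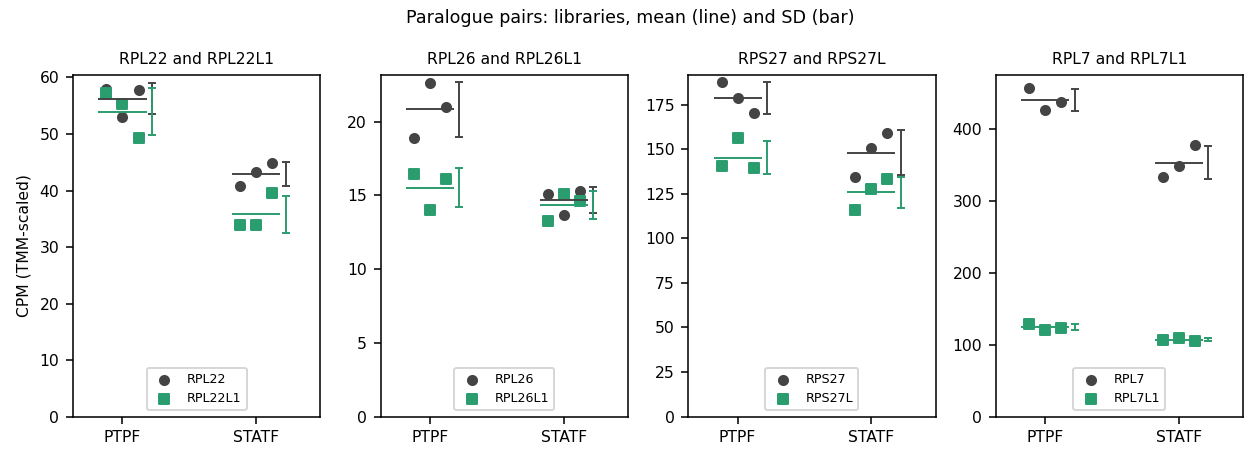
CPM (vertical axis, from 0) of both genes of the 4 paralogue pairs with a well-counted copy, by library, with group mean (line) and SD (bar). RPL22L1 and RPL22 are both higher in PTPF-labelled libraries, while RPL26L1 lies between 13.3 and 16.5 CPM in all 6 libraries.

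Libraries also differed within their group, and the deviation went with base composition. Over the same 78 members, whose coding transcripts run from 40.4% to 62.8% GC, each library's deviation from its own group mean was set against GC content across genes, which are not independent replicates. Pearson's r was 0.52, -0.70 and 0.28 in PTPF replicates 1, 2 and 3 and 0.59, -0.14 and -0.48 in STATF replicates 1, 2 and 3. Members rich in GC were thus relatively high in 1 library and relatively low in another of the same label. Opposite signs follow from the centring, because a gene's deviations cancel over the 3 libraries of its group. Only the size of r, and which library rises or falls, describes the data. GC content was available only for genes with a coding transcript. Over 3373 other genes with at least 50 CPM and a GC value, r was 0.13, -0.38, 0.29, 0.48, -0.22 and -0.30 in the same order. The sign was the same as over members in each library. The fold change between groups correlated with GC content at -0.31 over members and -0.07 over other genes. Members on either side of the median GC of 50.1% were similarly shifted, with median log2 fold changes of 0.28 for the 39 lower and 0.25 for the 39 higher. The part of base composition in single members' differences was not tested.

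**Figure D4:**
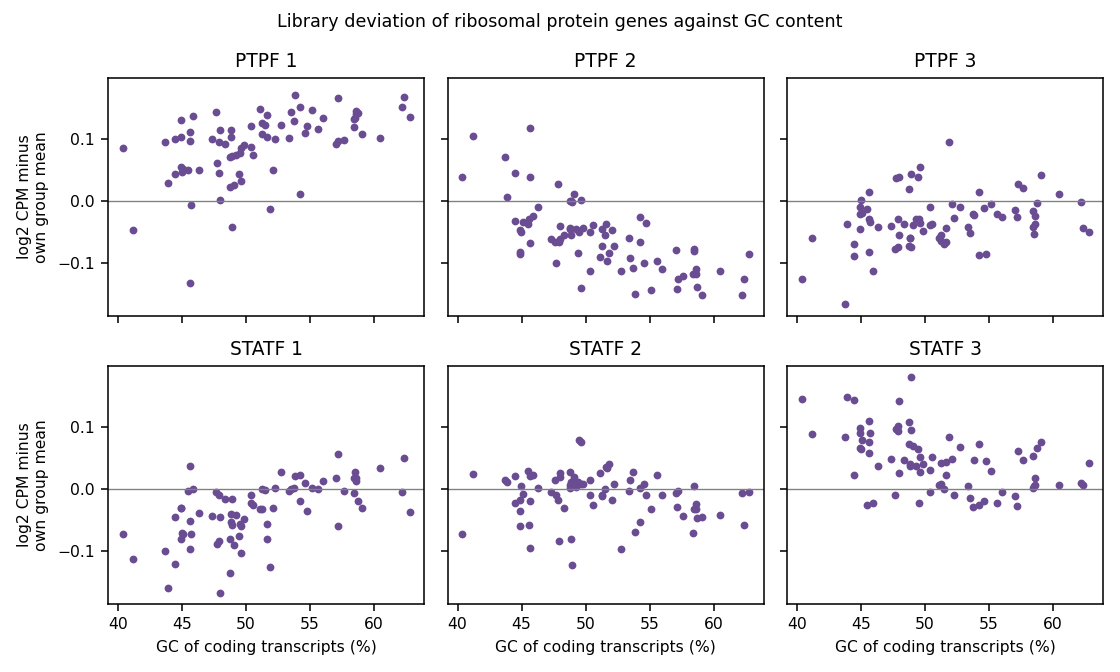
Each point is a ribosomal protein gene, placed by the GC percentage of its coding transcripts (horizontal axis) and by its log2 CPM in that library minus the mean of the library's own group (vertical axis). The cloud rises in PTPF replicate 1 (r = 0.52) and STATF replicate 1 (r = 0.59) and falls in PTPF replicate 2 (r = -0.70) and STATF replicate 3 (r = -0.48).

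Set against the TOP start shown above, the 52 tested members with the pyrimidine run had a median log2 fold change of 0.27 and a range from 0.20 to 0.59, and 50 of them were higher. The 16 tested members without it had a median of 0.20 and a range from 0.02 to 0.46, and 12 were higher. They include the copies RPL10L, RPL7L1, RPL26L1 and RPS27L, while RPL22L1 is the only tested copy with the run. RPL10L, which gives the low end of that range, and RPL17 also had few counts. The part of copies and of few counts in the lower median was not tested. The ranges overlapped widely, and RPS29, which lacks the run at its annotated start, was among the 6 members with the largest differences. RPS26, also without it, was among the 6 with the smallest. Members with the ETS motif had a median of 0.27 (n = 23) and those without it 0.24 (n = 45). These are descriptions of the members, without a test.

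Genes that work with the ribosome were counted from lists of translation factors, assembly factors and regulators. Of 40 ribosome biogenesis factors 24 were higher (60%) and 0 lower, where 10.1% of all genes were higher and 11.6% lower. The median log2 fold change of these factors was 0.21. RRS1, which helps load the 5S particle, was at 24.5, 22.9 and 24.6 against 14.2, 13.7 and 15.5 CPM. The groups were far apart, and the log2 fold change of RRS1 was 0.73 (SE 0.0752, edgeR adjusted p = 2.75e-08), larger than that of any member. GNL3, a nucleolar GTPase, was at 88.5 ± 4.92 against 65.0 ± 1.84 CPM (SD, n = 3 each), and RRP9, part of the U3 particle, at 25.6 ± 1.85 against 18.4 ± 0.277 CPM, with log2 fold changes of 0.44 and 0.47. Of 14 genes of RNA polymerase I and its factors 3 were higher (21.4%, against 10.1% of all genes) and 0 lower. The list is short, so its share is coarse, and its median was 0.12. Those higher were POLR1C (0.40), TAF1D (0.39) and POLR1E (0.29).

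Translation factors and other TOP messenger RNAs were higher in 10 of 25 (40%) and lower in 0, against 10.1% and 11.6% of all genes. Their median log2 fold change was 0.15. EEF1B2, an exchange factor of translation elongation, was at 185 ± 6.54 against 146 ± 6.6 CPM, and TPT1, a classical TOP messenger RNA, at 881 ± 14.2 against 711.6 ± 31.9 CPM (SD, n = 3 each). Their log2 fold changes were 0.34 and 0.31, and IMPDH2, an enzyme of guanine nucleotide synthesis, had 0.35. The elongation factor EEF1A1, at 6014 ± 439 against 5479 ± 82.1 CPM (SD, n = 3 each), had 0.13 and did not pass (edgeR adjusted p = 0.166). EEF2 (0.12, 0.164) and RACK1 (0.16, 0.0589), a protein bound to the small subunit, did not pass either.

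Of 18 genes of the mTORC1 and MYC axis, 2 were higher and 2 lower, with a median of 0.05, so that 11.1% were called in each direction, near the 10.1% and 11.6% of all genes. MYC, a transcription factor that drives ribosome production, was at 130.1, 124 and 133 against 92.96, 88.5 and 92.2 CPM. The groups lay far apart, and the log2 fold change was 0.50 (SE 0.0543, edgeR adjusted p = 6.36e-08). The translation repressor EIF4EBP1 was also higher (0.21, edgeR adjusted p = 0.00919, and 0.0649 with library totals as scaling), while RPTOR, the scaffold of mTORC1, had -0.22 (0.0196) and EIF4EBP2 -0.15 (0.0434). The RPTOR call ended without PTPF replicate 1 (0.0802) or STATF replicate 2 (0.18), and the count of lower genes was 0 without either of these libraries and 1 without PTPF replicate 3, STATF replicate 1 or STATF replicate 3. In these fits 8.53% to 11.2% of all genes were lower. Proteins of the mitochondrial ribosome, a separate machine, had 3 higher and 2 lower of 77, with a median of 0.02. Those higher were MRPL3 (0.19), MRPL16 (0.22) and MRPL23 (0.50) and those lower MRPL34 (-0.23) and MRPL15 (-0.20). Without PTPF replicate 2, 7 were higher and 1 lower, where 9.71% of all genes were higher and 10.3% lower. Without STATF replicate 1 the counts were 0 and 1, against 6.95% and 8.53% of all genes. The lower count was 4 without PTPF replicate 1 and 1 without PTPF replicate 3 or STATF replicate 3. Of all genes 11.2%, 9.75% and 9.08% were lower in these fits.

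**Figure D5:**
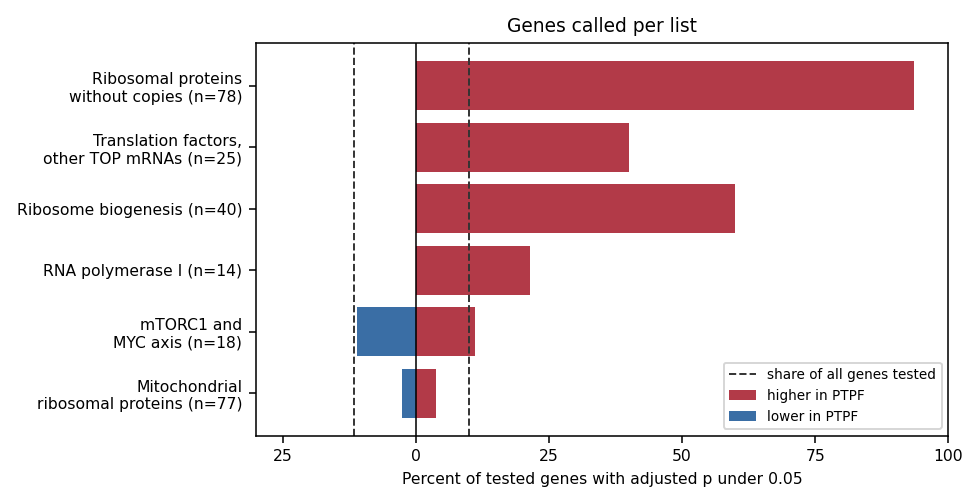
Percent of the tested genes of each list that were higher (red, right of 0) or lower (blue, left of 0) in PTPF-labelled libraries at an edgeR adjusted p under 0.05, with the share of all 17844 genes as dashed lines (10.1% and 11.6%). Ribosomal protein genes without copies had 73 of 78 higher, ribosome biogenesis 24 of 40 and mitochondrial ribosomal proteins 3 of 77.

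Some cell type markers of the line also differed between the groups. Hepatocyte markers were abundant. Their summed level was 20043 to 22741 CPM in the PTPF-labelled libraries and 25523 to 26781 CPM in the STATF-labelled ones. Of 8, 4 were lower (TF, ALB, CYP3A4 and APOA1) and 1 higher (ASGR1), where 11.6% of all genes were lower and 10.1% higher. APOB (log2 fold change -0.001), TTR (-0.12) and HNF4A (-0.14) did not pass. Biliary markers summed to 122 to 134 against 166 to 182 CPM, with KRT19 and SOX9 lower among 4 tested. KRT7 and SPP1 did not pass. Mesenchymal markers summed to 23.9 to 27.3 against 31.2 to 33.6 CPM, most of it from ACTA2, which was lower (-0.35, edgeR adjusted p = 0.000751). COL1A1 (-0.30) and PDGFRB (0.53) did not pass. Over the 6 libraries, endothelial markers summed to between 0.398 and 1.41 CPM and immune markers to between 0.212 and 0.453 CPM, with CD3E at 0 counts. In bulk samples like these, fewer cells of a type and less RNA per cell cannot be told apart, and the part of the markers in the ribosomal protein result was not tested.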

How the data were processed

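Polyadenylated RNA of 6 HepaRG samples was sequenced. The submitters' processing notes name CASAVA 1.8, HISAT2 2.0.5, featureCounts 1.5.0-p3 and GRCh38. The annotation release, strand setting and handling of multi-mapping reads were not given in the sources used here. A table deposited by the authors holds raw counts, 33225627 to 40796767 per library, and gene lengths in bases, a unit other than counts. Without strand or multi-mapping settings, overlapping genes, pseudogenes and close paralogues are uncertain, and exon overlaps, GC content and coding transcript lengths were taken from GENCODE release 29.

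Samples were grouped by title. Genes passing filterByExpr were scaled by TMM and tested with edgeR 4.0.16 (R 4.3.3; robust glmQLFit on group alone), adjusting p-values by Benjamini-Hochberg over all 17844 genes and a threshold of 0.05. Ratios of paralogue pairs were taken on counts, for copies with 10 counts in at least 1 library. Log2 CPM of single libraries used a pseudocount of 0.5, except in the plot of library deviations. Mean ± SD values are CPM after TMM. Alternatives were other scalings and filters, DESeq2 1.42.0, limma 3.58.1 voom, an adjusted p of 0.01, a replicate block, leaving out each library, leaving out mitochondrial genes, adding pseudogene counts, and leaving out members with shared exons. The last of these, and the second length, were added after the data were seen. The code was tested on simulated data. Libraries of a group differed beyond sampling noise (4.35 to 12.2 chi-square units per degree of freedom).

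Members and lists were chosen with earlier results of these data known. Named genes are the siRNA targets, all members that did not pass, the 6 largest and 6 smallest differences, paralogue pairs, the extremes by TPM, a fixed set of role genes and up to 3 genes per list by adjusted p. EEF1A1, EEF2, RACK1, members and pseudogenes named for their counts, and markers were picked in addition. Counting limits of a count of 0 are 3 counts, or 0.0735 to 0.0903 CPM per library, for counting error only. Levels of Y-linked copies, some genes that the rule took and sequences of some members are not reported here.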

Additional observations from a re-analysis of the deposited data

How the results depend on the processing

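Across the scalings, filters, tools and left-out libraries that were run, 62 to 78 members were called higher and 0 lower, and the members' median ran from 0.19 to 0.30. With library totals as scaling, where the median of all genes was -0.06 and 16.7% of all genes were lower, counts became 0 higher and 5 lower for mitochondrial ribosomal proteins, 1 lower for biogenesis, 1 lower for RNA polymerase I and 1 higher and 4 lower for the mTORC1 and MYC axis. RPL36AL then did not pass. Higher mitochondrial ribosomal proteins were 5 with at least 50 counts, where 13.1% of all genes were higher. With upper-quartile scaling 6 were, where 10.7% of all genes were, and 1 gene of the mTORC1 and MYC axis was lower, where 11% of all genes were. An adjusted p of 0.01 left 0 higher and 1 lower mitochondrial ribosomal proteins and 0 lower genes of the mTORC1 and MYC axis, and RPL36AL did not pass. At that threshold 6.37% of all genes were higher and 7.92% lower. PTPRD changed sign with library totals (-0.0612), limma-voom (-0.00380) and no filter (-0.00582), and RPL10L with library totals (-0.0415) and limma-voom (-0.0955). None of these sign changes passed the test, and their cause was not tested.

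With the replicate number as a block, 78 of 83 members and 5 of 77 mitochondrial ribosomal proteins were higher, where 10.8% of all genes were. PTPRD was at -0.00317 and RPL10L at -0.00952. The block called 4145 genes where 3863 were called without it. Deviations of same-numbered libraries correlated at r = 0.0491, 0.0821 and -0.00738, and not every library correlated best with its own number. Whether equal numbers mark a shared batch is not stated, and these correlations cannot decide it.

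Leaving out each library in turn gave 0 to 7 higher and 1 to 4 lower mitochondrial ribosomal proteins, 0 to 1 lower biogenesis factors and 0 to 2 lower genes of the mTORC1 and MYC axis. In these fits 6.95% to 9.71% of all genes were higher and 8.53% to 11.2% lower. The large minus small subunit difference of medians ran from -0.016 to 0.0104. Log2 fold changes ran from -0.46 to 0.40 for RPL10L, -0.0757 to 0.0893 for PTPRD and -0.00941 to 0.27 for RPL17. Differences of log2 ratios ran from -0.70 to 0.20 for RPL3L over RPL3 and from -0.76 to 0.21 for RPL10L over RPL10, copies whose few counts limit any ratio.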
